A study of Mus musculus with 4 samples.

Results

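The 35 genes described here carry out major histocompatibility complex (MHC) antigen presentation. They were chosen by symbol, and 34 of the 35 were found among the 30905 genes of the count matrix. Ifi30, the thiol reductase that unfolds antigens in endosomes, was not analysed here. The 23 class I genes were all found, as were 11 of the 12 class II genes. Class I molecules display peptides from proteins made inside the cell, and nearly all nucleated cells carry them. The peptides are cut by the proteasome, whose immune form holds Psmb8, Psmb9 and Psmb10, pumped into the endoplasmic reticulum by Tap1 and Tap2, trimmed by Erap1 and loaded with the help of Tapbp, Calr, Canx and Pdia3 onto a heavy chain paired with B2m. Class II molecules display peptides from material taken up by the cell, are mostly carried by dendritic cells, B cells and macrophages, and depend on the invariant chain Cd74 and on the transactivator Ciita. The transactivator of class I genes is Nlrc5.

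Single-cell RNA sequencing of mouse prostate was done in 4 libraries, 1 for each group. The groups were Trp53-deleted ADT mice (5.5 months old), Trp53-deleted mice (3.5 months old), Trp53-intact ADT mice (5.5 months old) and Trp53-intact mice (4 months old). Trp53-intact names the state of Trp53 alone and does not mean wild type: all groups share the rest of their genotype, which is altered as well. The labels mark the Trp53 deletion as restricted to the prostate, without naming the driver, and ADT is read here as androgen deprivation therapy, which the labels do not spell out. Differences with ADT, and those of genotype without ADT, cannot be told apart from those of age or of the library, nor those of genotype with ADT from the library. The sources do not say whether animals were pooled. With 1 library a group there is no replicate check: the values in parentheses after a level or ratio are a 95% interval for counting error only, no p-value is given, and "higher" or "lower" in a count means by at least 1.5-fold on the log2(CPM + 5) scale, CPM being unique molecular identifiers (UMIs) of a gene for every 1000000 UMIs of the cell class. A gene counts as measured when both libraries compared hold at least 20 of its UMIs together. The interval of a median is that of the gene in the middle of the list. In sums over cells of a class, a change in the number of cells that carry a gene and a change in its level per cell cannot be told apart.

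The libraries held 7806 to 10595 barcodes and 58088678 to 148030357 UMIs, and 28855 cells were kept, with medians of 4147 to 5647 UMIs. Between 8.39% and 25.7% of a library's barcodes exceeded the mitochondrial limit. Cells were grouped into 35 clusters without using the 35 genes, and 28 of them were named by markers: luminal progenitor-like cells were led by Psca, Wfdc2 and Epcam, basal-like cells by Krt14 and Krt5 and luminal-like cells by Defb50, Msmb and Pbsn, and the 3 make up the epithelial-like class. Cells of unnamed clusters made up 32.6% of the kept cells in Trp53-deleted ADT, 1.16% in Trp53-deleted, 19.95% in Trp53-intact ADT and 4.01% in Trp53-intact, and enter no comparison below unless stated. Among them, a shallow cluster led by Dapl1, Ccl20 and Car2, with Krt18 among its leading genes, is called the unnamed cluster of epithelial genes. It held 271 cells in Trp53-deleted ADT, 18 in Trp53-deleted, 1312 in Trp53-intact ADT and 68 in Trp53-intact. In both ADT libraries this exceeds the epithelial-like class, with 172 cells in Trp53-deleted ADT and 605 in Trp53-intact ADT. In all, 128 barcode sequences occurred in more than 1 library, and 192 kept cells shared theirs with a kept cell of another library. Trp53 in epithelial-like cells stood at 18.0 CPM in Trp53-deleted ADT, 18.5 in Trp53-deleted, 93.7 in Trp53-intact ADT and 59.7 in Trp53-intact, so the low level followed the deletion label in this class.

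In the mouse GRCm38 annotation, 21 of the 34 genes lie on chromosome 17, between positions 33915899 and 37274484, in the H2 complex. B2m and Pdia3 lie on chromosome 2, Psme1 and Psme2 on chromosome 14, Nlrc5, Calr and Psmb10 on chromosome 8, and the others singly, among them Ciita on chromosome 16 and Cd74 on chromosome 18. Promoters from RefSeq (GRCm38.p6) matched 29 of the 35 genes. The first 250 bases before the start site were searched on both strands for 8 motifs, chosen after these promoters had been looked at. A match is a description of the letters only. A listed gene counted when any of its promoters matched, while the shares of all promoters count each promoter singly, so these are not like for like.

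GGGATTCCC, letters of the NF-kappa-B kind, stood before H2-K1, H2-D1, H2-Q6 and H2-Q7, against 0.301% of all 32851 promoters. GATTGG, the letters of the Y box, stood before 12 of 20 class I and 7 of 9 class II genes with a promoter, against 14.6% of all promoters. The longer CTGATTGG, which contains it, stood before 7 class I and 3 class II genes, against 3.83%. TTTC followed after any 2 bases by TTTC, as in interferon response elements, stood before B2m, H2-T22, H2-T23 and Ctss, against 2.98%. TGACGC stood before 5 class I genes and no class II gene, against 6.12%. TAGCAAC stood before H2-Eb1 and H2-Ob, against 3.16%. Both matches lie inside the longer CTAGCAAC, which 1.13% of all promoters hold. TGATGATG stood before H2-Eb1, H2-DMb1 and Psme2, against 1.24%.

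The stretches below run 5′ to 3′ on the strand of the gene. The first set is shown because the levels of both heavy chains and of B2m part below. They lie at chr17:34000348-34000467 (minus strand) for H2-K1, chr17:35262914-35263053 (plus strand) for H2-D1 and chr2:122147518-122147652 (plus strand) for B2m. Capitals mark GGGATTCCC, GATTGG or its reverse complement, and the reverse complement of the interferon letters.
H2-K1: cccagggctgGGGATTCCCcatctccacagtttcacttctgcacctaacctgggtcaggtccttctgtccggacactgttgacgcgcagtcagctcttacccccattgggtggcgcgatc
H2-D1: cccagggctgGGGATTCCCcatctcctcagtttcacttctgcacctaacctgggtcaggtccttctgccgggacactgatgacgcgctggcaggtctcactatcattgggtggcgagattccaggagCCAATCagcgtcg
B2m: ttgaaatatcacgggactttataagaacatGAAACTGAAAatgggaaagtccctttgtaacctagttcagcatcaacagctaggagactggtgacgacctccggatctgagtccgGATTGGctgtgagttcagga

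The second set shows class II genes that hold GATTGG. By mean over libraries, H2-Aa, H2-Eb1 and H2-DMb1 were highest in dendritic-like, then macrophage-like, then B-like cells, and H2-Ob was highest in B-like cells. Whether the marked letters bear on these levels was not tested. The stretches lie at chr17:34287853-34287932 (minus strand) for H2-Aa, chr17:34305747-34305826 (plus strand) for H2-Eb1, chr17:34153069-34153148 (plus strand) for H2-DMb1 and chr17:34238787-34238866 (plus strand) for H2-Ob. Capitals mark GATTGG in each, TAGCAAC in H2-Eb1 and H2-Ob and TGATGATG in H2-Eb1 and H2-DMb1.
H2-Aa: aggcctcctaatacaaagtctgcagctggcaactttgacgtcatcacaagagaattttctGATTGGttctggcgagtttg
H2-Eb1: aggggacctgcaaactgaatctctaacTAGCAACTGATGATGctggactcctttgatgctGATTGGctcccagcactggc
H2-DMb1: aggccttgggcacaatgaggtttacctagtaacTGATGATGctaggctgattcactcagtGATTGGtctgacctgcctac
H2-Ob: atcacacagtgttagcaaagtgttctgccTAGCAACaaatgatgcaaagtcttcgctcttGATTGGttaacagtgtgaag

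H2-K1, H2-D1 and B2m were detected in every named class with at least 20 cells. Levels were ranked over the 12 classes with at least 20 cells in every library, which leaves out seminal vesicle-like cells, described below. Among these, H2-K1 had its highest levels in NK-like (3126 to 3989 CPM over the 4 libraries), epithelial-like (3010.3 to 3671 CPM) and T-like cells (2355 to 3563 CPM). Fibroblast-like cells were far lower, at 726 to 972 CPM. The ranges of the 3 highest classes overlap, and fibroblast-like cells do not overlap them. B2m, the light chain shared by all class I molecules, was highest among the ranked classes in macrophage-like (2933 to 4158 CPM) and epithelial-like cells (2359 to 4609.9 CPM), again with overlapping ranges, and stood at 999 to 1406 CPM in fibroblast-like cells. H2-D1 had 2625 to 2922 CPM in NK-like cells and 756 to 1205 CPM in fibroblast-like cells. H2-K1, H2-D1 and the H2-Q and H2-T genes are close in sequence, so reads could be split or lost between them, and the levels of the single genes are uncertain to that extent.

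The other parts of the class I pathway had their own order. Psmb8, a catalytic subunit of the immunoproteasome, was highest in dendritic-like cells (540.4 to 789.9 CPM), followed by NK-like (417 to 497 CPM) and T-like cells (334 to 599.6 CPM). The dendritic-like range overlaps that of T-like cells and not that of NK-like cells. Tap1 had its highest mean in dendritic-like cells (116 to 205 CPM). Its range there overlaps those of several classes, among them T-like (84.2 to 166 CPM), NK-like (100 to 119 CPM) and neutrophil-like cells (61.6 to 162 CPM). Nlrc5, the class I transactivator, was highest in T-like (45.4 to 101 CPM) and NK-like cells (40.7 to 85.3 CPM) and was 7.998 to 19.8 CPM in epithelial-like cells. H2-Q7, a class Ib heavy chain, had 1009 to 1154 CPM in NK-like and 692 to 1288 CPM in T-like cells, against 52.2 to 57.1 CPM in neutrophil-like cells.

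**Figure D1:**
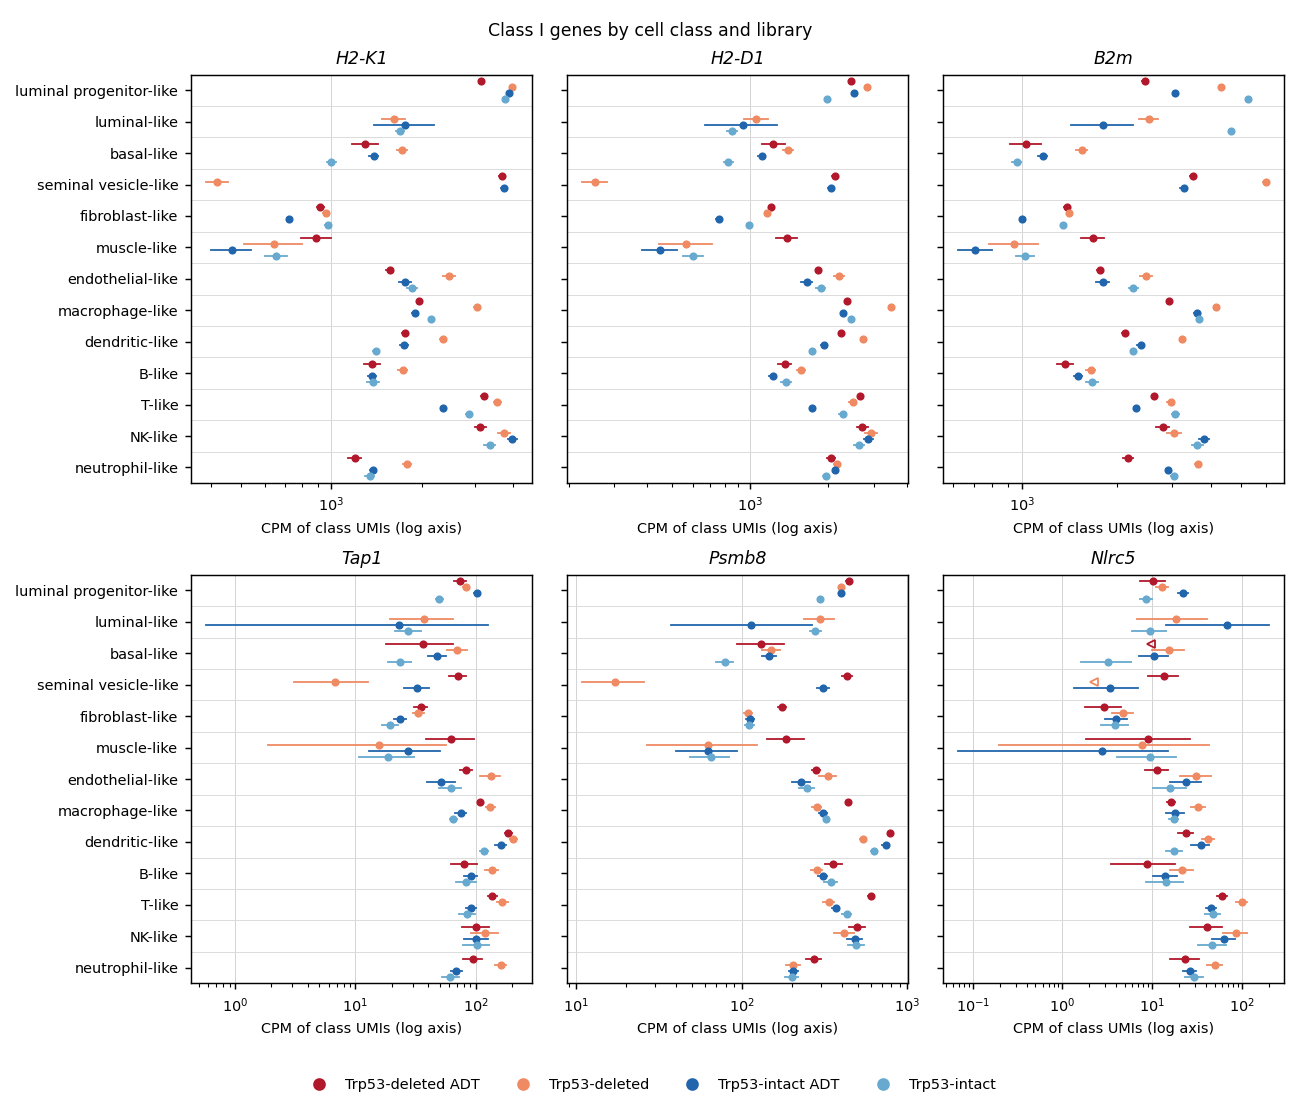
CPM (log axis) of 6 class I genes by cell class, 1 point for each library with its 95% counting interval, in classes with at least 20 cells; open triangles mark the limit that 0 UMIs allow. Epithelial luminal progenitor-like, T-like and NK-like cells sit high for H2-K1, and B2m in luminal progenitor-like cells is lower in both ADT libraries.

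Epithelial-like cells numbered 172 in Trp53-deleted ADT, 492 in Trp53-deleted, 605 in Trp53-intact ADT and 2006 in Trp53-intact. Most were luminal progenitor-like in the ADT libraries, with 143 in Trp53-deleted ADT, 261 in Trp53-deleted, 447 in Trp53-intact ADT and 483 in Trp53-intact, while luminal-like cells, a shallow cluster with medians of 854 to 1607 UMIs, numbered 5 in Trp53-deleted ADT, 146 in Trp53-deleted, 41 in Trp53-intact ADT and 1379 in Trp53-intact. H2-K1 in epithelial-like cells stood at 3010.3 CPM in Trp53-deleted ADT, 3671 in Trp53-deleted, 3376 in Trp53-intact ADT and 3201 in Trp53-intact. No comparison of this gene reached 1.5-fold. H2-D1 stood at 2356 CPM in Trp53-deleted ADT, 2615 in Trp53-deleted, 2222 in Trp53-intact ADT and 1707 in Trp53-intact, lowest in Trp53-intact. B2m stood at 2359 CPM in Trp53-deleted ADT, 3944 in Trp53-deleted, 2690.4 in Trp53-intact ADT and 4609.9 in Trp53-intact, so both ADT libraries were below both libraries without ADT.

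Trp53-deleted ADT epithelial-like cells were set against Trp53-deleted ones to ask what differs with ADT when Trp53 is deleted. The class I list had 0 of 23 measured genes higher and 2 lower, where 5.44% of all measured genes were higher and 7.44% lower. The median log2 ratio of the list was -0.14 (-0.26 to -0.02), against -0.09 over all genes. B2m was lower, at 0.598-fold (0.586 to 0.611), as was Tapbp, the tapasin that bridges Tap and the heavy chain, with 249 CPM in Trp53-deleted ADT, 380.3 in Trp53-deleted, 269.7 in Trp53-intact ADT and 265 in Trp53-intact. Its ratio was 0.655-fold (0.614 to 0.699). H2-K1, at 0.82-fold (0.804 to 0.836), and H2-D1, at 0.901-fold (0.881 to 0.921), did not reach 1.5-fold.

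In Trp53-intact mice the class I list ran the other way from B2m. Between Trp53-intact ADT and Trp53-intact epithelial-like cells, the list had 8 of 23 measured genes higher and 1 lower, where 5.42% of all measured genes were higher and 5.29% lower. The median log2 ratio was 0.37 (0.32 to 0.42), against 0.04 over all genes. The largest ratios belonged to the class Ib heavy chains H2-Q7 and H2-Q6 and to the transporter Tap1. H2-Q7 had 403 CPM in Trp53-deleted ADT, 315 in Trp53-deleted, 359 in Trp53-intact ADT and 154 in Trp53-intact, a log2 ratio of 1.20 with ADT. H2-Q6 had 157 CPM in Trp53-deleted ADT, 135 in Trp53-deleted, 156 in Trp53-intact ADT and 68.9 in Trp53-intact, a log2 ratio of 1.12. Trp53-intact alone was low for both genes, and the other 3 libraries lay close together. Tap1 had 71.5 CPM in Trp53-deleted ADT, 80.2 in Trp53-deleted, 91.0 in Trp53-intact ADT and 44.0 in Trp53-intact, a log2 ratio of 0.97. H2-Q4 had 179 CPM in Trp53-deleted ADT, 172 in Trp53-deleted, 229 in Trp53-intact ADT and 116 in Trp53-intact, with a log2 ratio of 0.95. The same library was the lowest for these members too. Nlrc5 had 9.47 CPM in Trp53-deleted ADT, 13.4 in Trp53-deleted, 19.8 in Trp53-intact ADT and 7.998 in Trp53-intact, from 42 to 289 UMIs a library, and a log2 ratio of 0.93. B2m was lower, at 0.584-fold (0.577 to 0.59).

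The immunoproteasome subunits differed less. Psmb8 had 419.8 CPM in Trp53-deleted ADT, 365 in Trp53-deleted, 345 in Trp53-intact ADT and 266 in Trp53-intact, and Psmb9 had 151 CPM in Trp53-deleted ADT, 144 in Trp53-deleted, 137 in Trp53-intact ADT and 95.4 in Trp53-intact. With ADT in Trp53-intact mice their log2 ratios were 0.37 and 0.50, short of 1.5-fold, and Trp53-intact was again the lowest library for both. Of the 15 subunits of the constitutive proteasome that were measured, none reached 1.5-fold in any of the 4 epithelial comparisons.

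Across genotypes, class I genes differed without ADT and hardly with it. Trp53-deleted against Trp53-intact epithelial-like cells had 7 of 23 measured genes higher and 0 lower, where 3.44% of all measured genes were higher and 3.45% lower, and a median log2 ratio of 0.49 (0.35 to 0.64) against 0.10 over all genes. The largest were H2-Q7 (1.01), H2-Q6 (0.93), H2-T22 (0.86) and Tap1 (0.80), all log2 ratios. H2-T22 had 154 CPM in Trp53-deleted ADT, 169.6 in Trp53-deleted, 158 in Trp53-intact ADT and 91.4 in Trp53-intact. With ADT, Trp53-deleted against Trp53-intact cells had 0 of 23 measured genes higher and 1 lower, where 3.4% of all measured genes were higher and 3.65% lower, and a median of -0.05 (-0.20 to 0.09), against -0.02. The lower gene was Nlrc5, with a log2 ratio of -0.78. Comparisons that share a library are not independent: Trp53-intact, the lowest library for many class I genes, stands in both comparisons with the larger medians.

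Luminal progenitor-like cells alone gave much the same class I counts. They had 0 of 23 measured genes higher and 2 lower in Trp53-deleted ADT against Trp53-deleted, where 6.33% of all measured genes were higher and 7.57% lower. In Trp53-intact ADT against Trp53-intact they had 7 of 23 measured genes higher and 2 lower, where 6.31% of all measured genes were higher and 5.1% lower. Between Trp53-deleted ADT and Trp53-intact ADT they had 0 of 23 measured genes higher and 1 lower, where 4.01% of all measured genes were higher and 3.49% lower, and between Trp53-deleted and Trp53-intact 5 of 23 measured genes higher and 0 lower, where 3.09% of all measured genes were higher and 2.8% lower.

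Basal-like cells, of which there were 24 in Trp53-deleted ADT, 85 in Trp53-deleted, 117 in Trp53-intact ADT and 144 in Trp53-intact, differed more widely in all genes and in class I genes alike. The list had 0 of 23 measured genes higher and 8 lower in Trp53-deleted ADT against Trp53-deleted, where 7.35% of all measured genes were higher and 32.8% lower. It had 9 of 23 measured genes higher and 0 lower in Trp53-intact ADT against Trp53-intact, where 7.98% of all measured genes were higher and 5.51% lower, and 0 of 23 measured genes higher and 2 lower between Trp53-deleted ADT and Trp53-intact ADT, where 9.36% of all measured genes were higher and 19.5% lower. Between Trp53-deleted and Trp53-intact it had 16 of 23 measured genes higher and 1 lower, where 25.2% of all measured genes were higher and 5.98% lower. H2-Q6 stood at 32.8 CPM in Trp53-deleted ADT, 57.8 in Trp53-deleted, 51.3 in Trp53-intact ADT and 10.2 in Trp53-intact in basal-like cells. Trp53-intact was again the lowest library. Tapbp stood at 65.5 CPM in Trp53-deleted ADT, 268 in Trp53-deleted, 109 in Trp53-intact ADT and 114 in Trp53-intact, highest in Trp53-deleted.

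Interferon-induced genes were counted in the same cells. Of 24 measured, 16 were higher and 1 lower in Trp53-intact ADT against Trp53-intact epithelial-like cells (median log2 ratio 0.84), where 5.42% of all measured genes were higher and 5.29% lower (median 0.04), and 14 were higher and 0 lower in Trp53-deleted against Trp53-intact (median 0.65), where 3.44% were higher and 3.45% lower (median 0.10). Between Trp53-deleted ADT and Trp53-deleted 2 were higher and 2 lower, and between Trp53-deleted ADT and Trp53-intact ADT 2 were higher and 3 lower. Isg15, a ubiquitin-like interferon-induced protein, had 162 CPM in Trp53-deleted ADT, 164 in Trp53-deleted, 188 in Trp53-intact ADT and 72.2 in Trp53-intact. Of 16 measured genes of interferon gamma signalling and MHC regulation, 2 were higher and 1 lower in Trp53-intact ADT against Trp53-intact. Ifng itself had at most 0.238 CPM in epithelial-like cells.

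**Figure D2:**
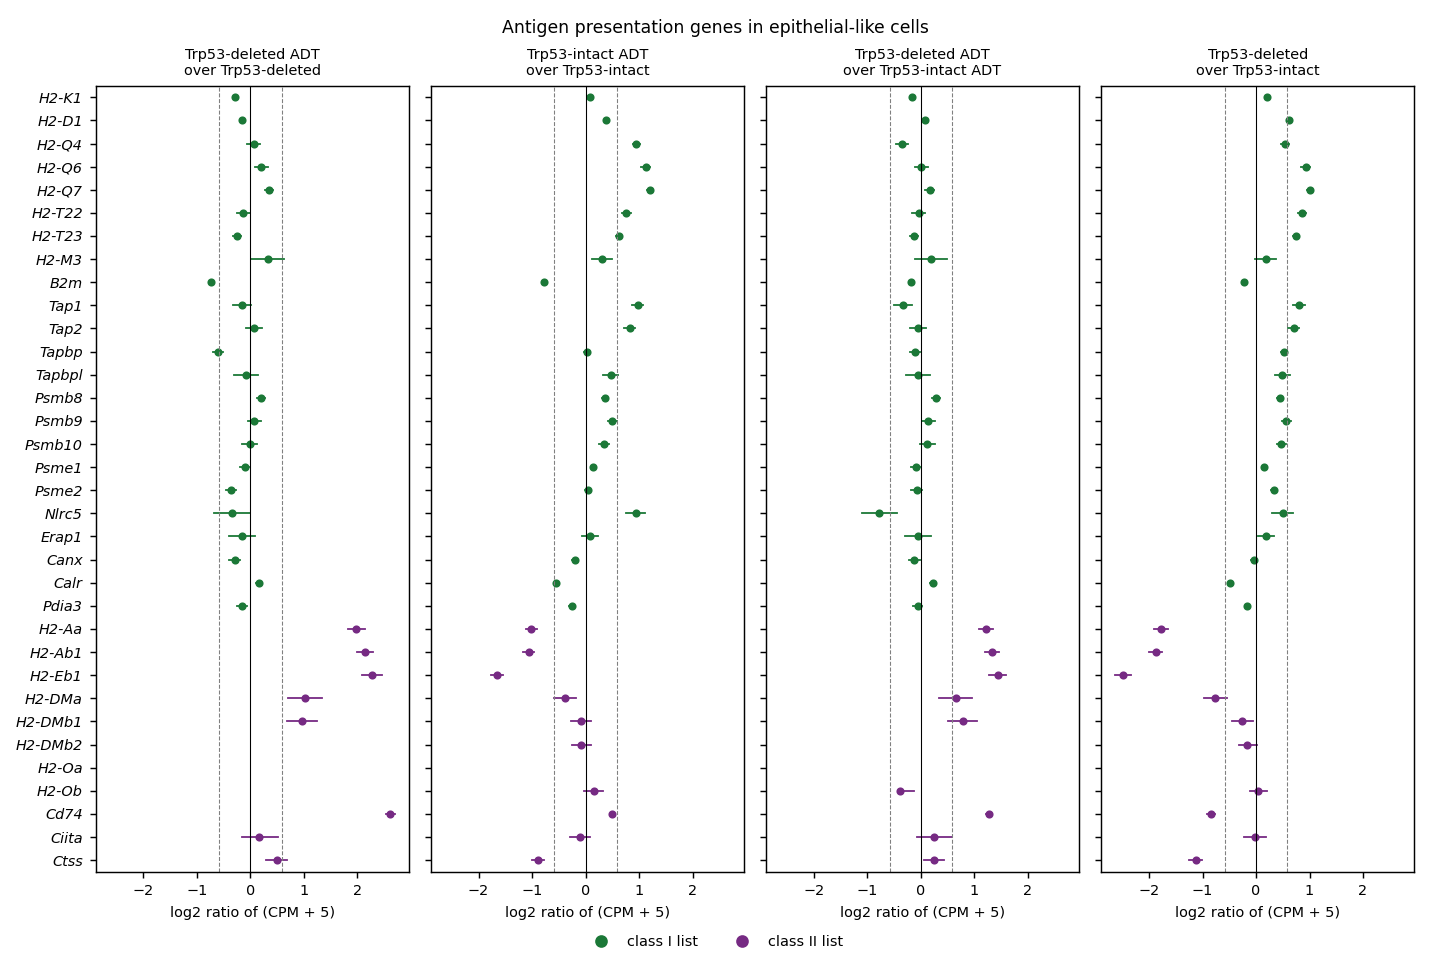
Log2 ratios of (CPM + 5) for each measured gene in epithelial-like cells, 1 panel for each comparison, with 95% counting intervals; dashed lines mark 1.5-fold. Class I genes (green) lie near 0 in the panels of Trp53-deleted ADT and mostly above 0 in those set against Trp53-intact, apart from B2m, Canx, Calr and Pdia3, while class II genes (purple) spread widely.

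The level of Cd74 varied more between cell classes than that of H2-K1: the mean over libraries of Cd74 was 19084 CPM in the highest and 142 CPM in the lowest of 12 classes, and that of H2-K1 3551 and 665 CPM. The summed level of the alpha and beta chains H2-Aa, H2-Ab1 and H2-Eb1 was 30999 CPM in Trp53-deleted ADT, 26345 in Trp53-deleted, 29384 in Trp53-intact ADT and 29224 in Trp53-intact in dendritic-like cells. In macrophage-like cells it was 16128 CPM in Trp53-deleted ADT, 16889 in Trp53-deleted, 11984 in Trp53-intact ADT and 19839.8 in Trp53-intact. In B-like cells it was 10728 CPM in Trp53-deleted ADT, 10217 in Trp53-deleted, 10599 in Trp53-intact ADT and 9298 in Trp53-intact. Neutrophil-like cells, which should lack these genes and serve as the background for RNA outside its own cells, had 883 CPM in Trp53-deleted ADT, 530.1 in Trp53-deleted, 320.1 in Trp53-intact ADT and 615 in Trp53-intact. This level thus differed between libraries, highest in Trp53-deleted ADT and lowest in Trp53-intact ADT. It is a reference and not a measured background of other classes, which differ in UMIs a cell. Epcam, an epithelial gene, had 31.9 CPM in Trp53-deleted ADT, 46.4 in Trp53-deleted, 33.1 in Trp53-intact ADT and 59.2 in Trp53-intact in neutrophil-like cells. In fibroblast-like cells it had 7.94 CPM in Trp53-deleted ADT, 9.31 in Trp53-deleted, 11.4 in Trp53-intact ADT and 15.9 in Trp53-intact. Cd74, the invariant chain that guides class II molecules to endosomes, spanned 17338 to 21338 CPM in dendritic-like, 8274 to 12669.6 CPM in macrophage-like and 8477 to 11524 CPM in B-like cells, against 187 to 792 CPM in neutrophil-like cells. The dendritic-like range lies above the other classes, and those of macrophage-like and B-like cells overlap.

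Ciita, which switches on class II genes, was at 150.5 to 198 CPM in dendritic-like, 104 to 205 CPM in B-like and 40.5 to 81.1 CPM in macrophage-like cells, and at most 8.37 CPM in fibroblast-like, endothelial-like, epithelial-like, T-like, NK-like or neutrophil-like cells. Genes of the peptide exchange step split further. H2-DMa and H2-DMb1, the exchange factor, were highest in dendritic-like, macrophage-like and B-like cells. H2-DMa had 1049.8 CPM in Trp53-deleted ADT, 796 in Trp53-deleted, 687 in Trp53-intact ADT and 815 in Trp53-intact in dendritic-like cells. H2-Oa and H2-Ob, which inhibit the exchange, and the second beta chain H2-DMb2 were instead high in B-like and dendritic-like cells. H2-Ob spanned 305 to 486 CPM in B-like, 42.8 to 95.8 CPM in dendritic-like and 4.20 to 6.96 CPM in macrophage-like cells, and H2-DMb2 spanned 373 to 481 CPM in B-like, 119.99 to 211 CPM in dendritic-like and 6.05 to 9.18 CPM in macrophage-like cells. Ctss, the protease that degrades the invariant chain, was highest in macrophage-like cells, at 3054 CPM in Trp53-deleted ADT, 2199 in Trp53-deleted, 3723 in Trp53-intact ADT and 2734 in Trp53-intact.

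**Figure D3:**
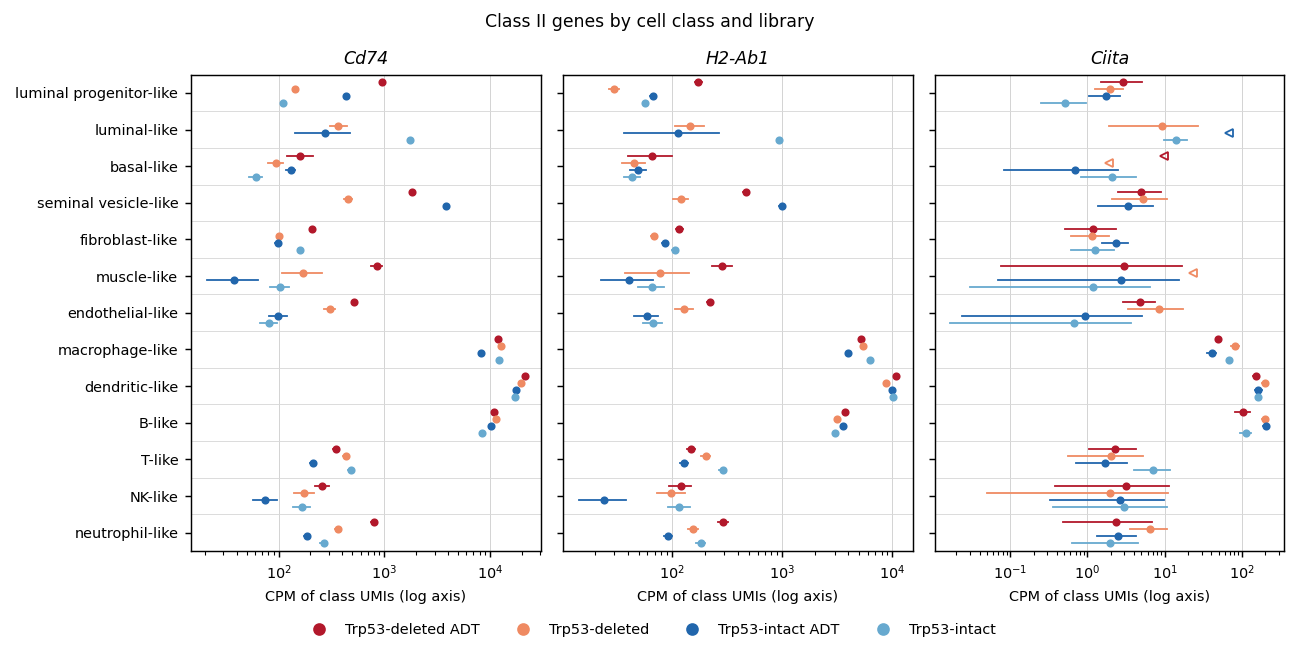
CPM (log axis) of 3 class II genes by cell class, 1 point for each library with its 95% counting interval, in classes with at least 20 cells; open triangles mark the limit that 0 UMIs allow. Dendritic-like, macrophage-like and B-like cells stand well above the neutrophil-like row at the bottom, and seminal vesicle-like cells of both ADT libraries stand above it for Cd74 and H2-Ab1.

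In epithelial-like cells class II genes were low, and most measured ones were higher in Trp53-deleted ADT than in Trp53-deleted. Cd74 had 903 CPM in Trp53-deleted ADT, 143 in Trp53-deleted, 369 in Trp53-intact ADT and 259 in Trp53-intact. H2-Ab1, the beta chain of the I-A molecule, had 168 CPM in Trp53-deleted ADT, 34.3 in Trp53-deleted, 64.1 in Trp53-intact ADT and 139 in Trp53-intact. H2-Aa had 152 CPM in Trp53-deleted ADT, 34.7 in Trp53-deleted, 62.3 in Trp53-intact ADT and 131 in Trp53-intact, and H2-Eb1 had 122 CPM in Trp53-deleted ADT, 21.4 in Trp53-deleted, 42.0 in Trp53-intact ADT and 143 in Trp53-intact. Trp53-deleted was the lowest library for all 4 genes. In Trp53-deleted ADT against Trp53-deleted cells the class II list had 6 of 8 measured genes higher and 0 lower, where 5.44% of all measured genes were higher and 7.44% lower, and a median log2 ratio of 1.503 (1.26 to 1.74). With each cell weighted alike in place of summed UMIs the median was 0.69. Cd74 was 6.31-fold (5.98 to 6.67) and H2-Ab1 4.90-fold (4.36 to 5.52). H2-DMa had 15.3 CPM in Trp53-deleted ADT, 4.97 in Trp53-deleted, 7.96 in Trp53-intact ADT and 12.0 in Trp53-intact. Ciita had 2.71 CPM in Trp53-deleted ADT, 1.90 in Trp53-deleted, 1.51 in Trp53-intact ADT and 2.02 in Trp53-intact, from 12 to 51 UMIs a library, and the interval of its ratio, 1.42-fold (0.654 to 2.92), includes 1. Ctss had 59.1 CPM in Trp53-deleted ADT, 40.5 in Trp53-deleted, 48.9 in Trp53-intact ADT and 94.4 in Trp53-intact.

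Most immune genes measured were higher in the same comparison, and B cell genes were not. The immune carry-over list (16 genes of macrophages, neutrophils and lymphocytes) had 10 of 14 measured genes higher and 1 lower, with a median log2 ratio of 1.39. Its summed level in epithelial-like cells was 438 CPM in Trp53-deleted ADT, 123 in Trp53-deleted, 251 in Trp53-intact ADT and 546 in Trp53-intact, with 14 to 16 of the 16 genes detected a library. Lyz2, a macrophage and neutrophil lysozyme, had 97.4 CPM in Trp53-deleted ADT, 32.1 in Trp53-deleted, 23.8 in Trp53-intact ADT and 153 in Trp53-intact. Trbc2, a constant region of the T cell receptor, had the largest ratio of the list, with 32.3 CPM in Trp53-deleted ADT, 3.29 in Trp53-deleted, 50.7 in Trp53-intact ADT and 3.44 in Trp53-intact. In neutrophil-like cells it had 8.56 CPM in Trp53-deleted ADT, 13.8 in Trp53-deleted, 15.6 in Trp53-intact ADT and 0.774 in Trp53-intact. In epithelial-like cells it thus stood above the neutrophil-like level in every library but Trp53-deleted. The gene that was lower was Cd79a, of the B cell receptor, with 0 CPM in Trp53-deleted ADT, 5.27 in Trp53-deleted, 4.60 in Trp53-intact ADT and 1.39 in Trp53-intact, and Ms4a1, of B cells, was also at 0 in Trp53-deleted ADT. The part of these genes in the class II result was not tested. H2-Aa, H2-Ab1, H2-Eb1 and Ctss in epithelial-like cells lay below the neutrophil-like level of the same library in all 4 libraries. Cd74 lay above it in both ADT libraries alone, by 1.14-fold (1.06 to 1.22) in Trp53-deleted ADT and 1.98-fold in Trp53-intact ADT. The neutrophil-like cluster led by S100a8 had 875 CPM of Cd74 in Trp53-deleted ADT, against 903 in epithelial-like cells. H2-DMb1 lay above the neutrophil-like level in both Trp53-intact libraries, at 13.5 against 4.999 CPM with ADT and 14.5 against 7.74 CPM without. H2-DMb1 lay below it in both Trp53-deleted libraries. Ratios of H2-DMa and Ciita above 1 had intervals that include 1.

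With ADT in Trp53-intact mice, the class II list had 0 of 10 measured genes higher and 4 lower, where 5.42% of all measured genes were higher and 5.29% lower, with a median log2 ratio of -0.25 (-0.44 to -0.05) against 0.04 over all genes. With each cell weighted alike the median was -2.10. The log2 ratios were -1.65 for H2-Eb1, -1.06 for H2-Ab1, -1.02 for H2-Aa and -0.88 for Ctss, while Cd74 was at 0.50. The carry-over list had 4 of 15 measured genes higher and 7 lower. This direction rested on the luminal-like cluster, most of whose cells came from Trp53-intact: without it the median was 0.19. With the unnamed cluster of epithelial genes counted as epithelial-like, the median was 0.31. In luminal-like cells the chains summed to 457 CPM in Trp53-deleted, 526 in Trp53-intact ADT and 2790.4 in Trp53-intact. The immune carry-over list summed there to 802 CPM in Trp53-deleted, 1074 in Trp53-intact ADT and 3854 in Trp53-intact, and its part in the result was not tested. In luminal progenitor-like cells alone the class II list had 1 of 10 measured genes higher and 0 lower, where 6.31% of all measured genes were higher and 5.1% lower, and a median of 0.22 (0.05 to 0.39), with Cd74 at 3.92-fold (3.72 to 4.12).

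The genotype comparisons had opposite signs with and without ADT, a difference that was not tested. Trp53-deleted ADT against Trp53-intact ADT had 6 of 9 measured genes higher and 0 lower, where 3.4% of all measured genes were higher and 3.65% lower, with a median of 0.79 (0.51 to 1.06), led by H2-Eb1 (1.44), H2-Ab1 (1.33), Cd74 (1.28) and H2-Aa (1.22). Trp53-deleted against Trp53-intact had 0 of 10 measured genes higher and 6 lower, where 3.44% of all measured genes were higher and 3.45% lower, with a median of -0.80 (-0.94 to -0.66), led by H2-Eb1 (-2.49), H2-Ab1 (-1.88), H2-Aa (-1.77) and Ctss (-1.13). With each cell weighted alike the median of that comparison was -1.66. In luminal progenitor-like cells alone it had 0 of 9 measured genes higher and 3 lower, where 3.09% of all measured genes were higher and 2.8% lower, and a median of -0.21 (-0.44 to 0.04), and Cd74 turned to 0.37. The carry-over list had 6 of 14 measured genes higher and 1 lower between Trp53-deleted ADT and Trp53-intact ADT, and 1 of 15 measured genes higher and 8 lower between Trp53-deleted and Trp53-intact. With the unnamed cluster of epithelial genes counted as epithelial-like, the median between Trp53-deleted ADT and Trp53-intact ADT was 0.02. That cluster held 271 cells in Trp53-deleted ADT and 1312 in Trp53-intact ADT, more than the epithelial-like class in both.

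Set against neutrophil-like cells of the same library, Cd74 and the chains parted in luminal progenitor-like cells. Cd74 had 959.7 CPM in Trp53-deleted ADT, 143 in Trp53-deleted, 430.0 in Trp53-intact ADT and 109.7 in Trp53-intact there, against 792 CPM in Trp53-deleted ADT, 365 in Trp53-deleted, 187 in Trp53-intact ADT and 268 in Trp53-intact in neutrophil-like cells. It thus exceeded the neutrophil-like level in both ADT libraries and in neither of the others. Median UMIs a luminal progenitor-like cell were 18462 in Trp53-deleted ADT, 38008 in Trp53-deleted, 11654 in Trp53-intact ADT and 30845 in Trp53-intact. These cells were thus shallower in both ADT libraries, and the part of depth in this pattern was not tested. H2-Ab1 had 174 CPM in Trp53-deleted ADT, 29.8 in Trp53-deleted, 67.7 in Trp53-intact ADT and 57.7 in Trp53-intact, against 293 CPM in Trp53-deleted ADT, 156 in Trp53-deleted, 92.7 in Trp53-intact ADT and 183 in Trp53-intact in neutrophil-like cells, and lay below it in every library. The chains together, at 457 CPM in Trp53-deleted ADT, 77.5 in Trp53-deleted, 179.8 in Trp53-intact ADT and 169 in Trp53-intact, also lay below the neutrophil-like sums in all 4.

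The share of cells with a Cd74 UMI was compared after thinning each cell to 1000 UMIs. In luminal progenitor-like cells it was 46.2% (37.8 to 54.7%) in Trp53-deleted ADT, 10.0% (6.64 to 14.3%) in Trp53-deleted, 21.5% (17.8 to 25.6%) in Trp53-intact ADT and 9.15% (6.73 to 12.1%) in Trp53-intact. In neutrophil-like cells it was 29.9% (25.8 to 34.2%) in Trp53-deleted ADT, 23.5% (20.5 to 26.8%) in Trp53-deleted, 11.2% (9.63 to 12.97%) in Trp53-intact ADT and 17.4% (14.8 to 20.3%) in Trp53-intact. Thinning left out at most 5 luminal progenitor-like cells of a library, and of neutrophil-like cells 18.0 in Trp53-deleted ADT, 146 in Trp53-deleted, 21.0 in Trp53-intact ADT and 14.0 in Trp53-intact. Unthinned, the luminal progenitor-like shares were 86.0% in Trp53-deleted ADT, 72.0% in Trp53-deleted, 59.3% in Trp53-intact ADT and 66.7% in Trp53-intact and the median UMIs a cell were 18462 in Trp53-deleted ADT, 38008 in Trp53-deleted, 11654 in Trp53-intact ADT and 30845 in Trp53-intact. The neutrophil-like shares were then 58.8% in Trp53-deleted ADT, 47.3% in Trp53-deleted, 28.7% in Trp53-intact ADT and 43.2% in Trp53-intact, with median UMIs of 2619.5 in Trp53-deleted ADT, 2615 in Trp53-deleted, 3537 in Trp53-intact ADT and 3218 in Trp53-intact. The thinned share was above that of neutrophil-like cells in the ADT libraries alone, as for CPM. Thinning keeps the proportions of RNA within a cell, so it is no independent check of the CPM result. For H2-Ab1 the thinned share in luminal progenitor-like cells was 13.3% in Trp53-deleted ADT, 3.85% in Trp53-deleted, 8.60% in Trp53-intact ADT and 7.07% in Trp53-intact. In neutrophil-like cells it was 17.8% in Trp53-deleted ADT, 10.8% in Trp53-deleted, 6.10% in Trp53-intact ADT and 14.3% in Trp53-intact. The luminal progenitor-like share was above the neutrophil-like one in Trp53-intact ADT alone, where the counting intervals overlap (6.16 to 11.6% against 4.92 to 7.47%).

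Class II UMIs and immune UMIs fell in the same epithelial-like cells most often in Trp53-intact. Class II UMIs here are those of H2-Aa, H2-Ab1, H2-Eb1 and Cd74. Immune UMIs here are those of a part of the carry-over list: Ptprc, C1qa, C1qb, C1qc, Tyrobp, Fcer1g, Cd79a, Cd3e and Lyz2. After thinning, 29 of 171 cells in Trp53-deleted ADT, 11 of 442 in Trp53-deleted, 26 of 574 in Trp53-intact ADT and 157 of 1323 in Trp53-intact held at least 3 class II UMIs. Of these, 13 in Trp53-deleted ADT, 5 in Trp53-deleted, 5 in Trp53-intact ADT and 136 in Trp53-intact also held an immune UMI. The 157 cells of Trp53-intact averaged 12.7 immune UMIs, 19.9 class II UMIs and 1.03 UMIs of Epcam, Krt8 and Krt18 together. Of them 9 were luminal progenitor-like. Among cells with no class II UMI an immune UMI was found in 22.5% in Trp53-deleted ADT, 11.1% in Trp53-deleted, 9.78% in Trp53-intact ADT and 23.4% in Trp53-intact.

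**Figure D4:**
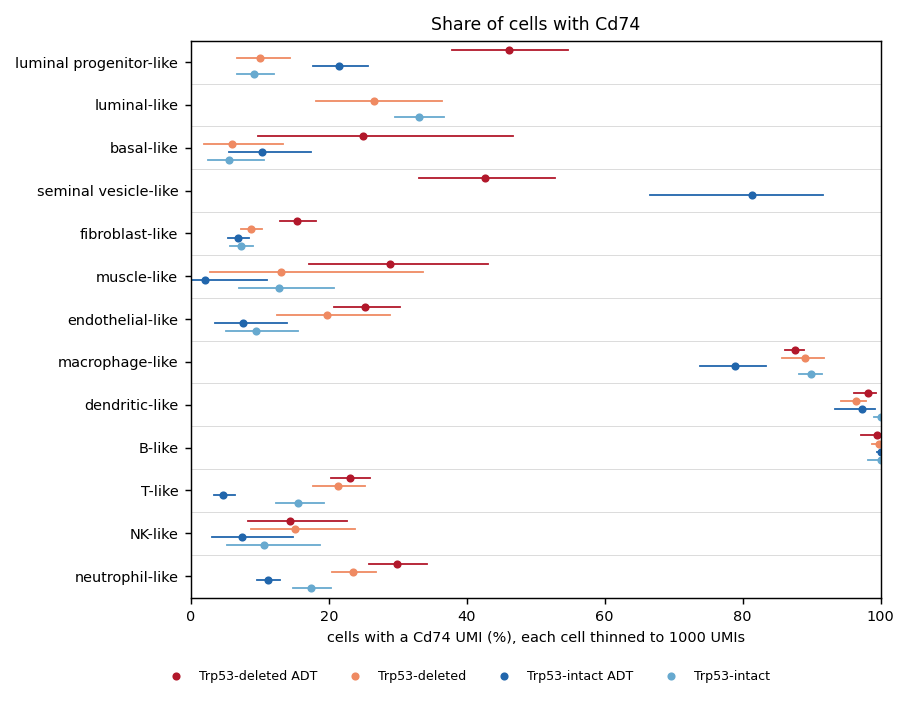
Share of cells with a Cd74 UMI after thinning to 1000 UMIs a cell, by class and library, with 95% exact binomial intervals. Luminal progenitor-like cells of Trp53-deleted ADT (46.2%) and Trp53-intact ADT (21.5%) lie above the neutrophil-like cells of the same libraries (29.9% and 11.2%), and seminal vesicle-like cells reach 81.4% in Trp53-intact ADT.

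Seminal vesicle-like cells, a cluster of 205 cells led by seminal vesicle secretory genes, had more Cd74 than the neutrophil-like cells of the same library. There were 131 in Trp53-deleted ADT, 24 in Trp53-deleted, 48 in Trp53-intact ADT and 2 in Trp53-intact, so shares are given for the ADT libraries alone. Median UMIs a cell were 3480.0 in Trp53-deleted ADT, 4034 in Trp53-deleted, 36166 in Trp53-intact ADT and 92729 in Trp53-intact. Cd74 had 1849 CPM in Trp53-deleted ADT, 455 in Trp53-deleted and 3864 in Trp53-intact ADT, and H2-Ab1 had 471 CPM in Trp53-deleted ADT, 120.2 in Trp53-deleted and 992 in Trp53-intact ADT. Cd74 exceeded the neutrophil-like level in all 3 libraries, and H2-Ab1 in the ADT libraries. The immune carry-over list summed to 1025 CPM in Trp53-deleted ADT, 287 in Trp53-deleted and 86.0 in Trp53-intact ADT. Its part in the Cd74 levels, and that of depth, was not tested. Ciita stood at 4.95 CPM in Trp53-deleted ADT, 5.23 in Trp53-deleted and 3.38 in Trp53-intact ADT. H2-K1 had 3684 CPM in Trp53-deleted ADT, 419 in Trp53-deleted and 3733 in Trp53-intact ADT, low in the 24 cells of Trp53-deleted, where B2m was high: 3496 CPM in Trp53-deleted ADT, 5992 in Trp53-deleted and 3273 in Trp53-intact ADT. The thinned share of cells with Cd74 was 42.7% (33.0 to 52.8%) in Trp53-deleted ADT and 81.4% (66.6 to 91.6%) in Trp53-intact ADT. It left out 28.0 in Trp53-deleted ADT and 5.00 in Trp53-intact ADT, and the unthinned shares were 74.8% in Trp53-deleted ADT and 87.5% in Trp53-intact ADT.

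Fibroblast-like cells numbered 771 in Trp53-deleted ADT, 1581 in Trp53-deleted, 1182 in Trp53-intact ADT and 1109 in Trp53-intact. Their clusters differed with ADT: the cluster led by Mmp3 and Sfrp4 held 470 in Trp53-deleted ADT, 45 in Trp53-deleted, 943 in Trp53-intact ADT and 98 in Trp53-intact, and the cluster led by Sult1e1 and Col6a5 held 17 in Trp53-deleted ADT, 1311 in Trp53-deleted, 40 in Trp53-intact ADT and 928 in Trp53-intact. The class I list had 4 of 23 measured genes higher and 1 lower in Trp53-deleted ADT against Trp53-deleted, where 8.49% of all measured genes were higher and 10.2% lower, and 0 of 23 measured genes higher and 0 lower in Trp53-intact ADT against Trp53-intact, where 7.34% of all measured genes were higher and 6.15% lower. Between Trp53-deleted ADT and Trp53-intact ADT it had 6 of 23 measured genes higher and 0 lower, where 8.3% of all measured genes were higher and 6.79% lower, with a median of 0.23 (0.00 to 0.45). Between Trp53-deleted and Trp53-intact it had 3 of 23 measured genes higher and 2 lower, where 10.6% of all measured genes were higher and 5.6% lower, with a median of 0.16 (-0.03 to 0.36).

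Among single genes, Calr, a loading chaperone, had 755 CPM in Trp53-deleted ADT, 346 in Trp53-deleted, 901 in Trp53-intact ADT and 959 in Trp53-intact in fibroblast-like cells, lowest in Trp53-deleted. H2-Q7 had 76.8 CPM in Trp53-deleted ADT, 37.7 in Trp53-deleted, 34.0 in Trp53-intact ADT and 38.4 in Trp53-intact, highest in Trp53-deleted ADT. H2-T23, a class Ib heavy chain recognised by NK cells, had 231 CPM in Trp53-deleted ADT, 253 in Trp53-deleted, 144 in Trp53-intact ADT and 128 in Trp53-intact, and both Trp53-deleted libraries were above both Trp53-intact ones. A mesenchymal cluster of 654 cells of Trp53-deleted ADT, left unnamed, had 401 CPM of H2-K1, 772 CPM of B2m and 64.2 CPM of Cd74. Counting it as fibroblast-like turned the class I median between Trp53-deleted ADT and Trp53-intact ADT to -0.22.

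Cd74 and the class II chains of fibroblast-like cells lay below the neutrophil-like level. Whether they exceed carried-over RNA was not tested. Cd74 had 209 CPM in Trp53-deleted ADT, 102 in Trp53-deleted, 98.0 in Trp53-intact ADT and 159 in Trp53-intact, less than in the neutrophil-like cells of every library, as were H2-Aa, H2-Ab1 and H2-Eb1. H2-DMb1 had 27.5 CPM in Trp53-deleted ADT, 12.6 in Trp53-deleted, 13.7 in Trp53-intact ADT and 17.5 in Trp53-intact, against 31.1 CPM in Trp53-deleted ADT, 11.9 in Trp53-deleted, 4.999 in Trp53-intact ADT and 7.74 in Trp53-intact in neutrophil-like cells, and lay below it in Trp53-deleted ADT alone. The class II list had 7 of 10 measured genes higher and 0 lower in Trp53-deleted ADT against Trp53-deleted and 1 of 10 measured genes higher and 3 lower in Trp53-intact ADT against Trp53-intact. Ctss, highest with ADT in Trp53-deleted mice, had 50.5 CPM in Trp53-deleted ADT, 11.7 in Trp53-deleted, 14.1 in Trp53-intact ADT and 28.5 in Trp53-intact. The immune carry-over list summed to 598 CPM in Trp53-deleted ADT, 222 in Trp53-deleted, 301 in Trp53-intact ADT and 255 in Trp53-intact, highest in the same library, and its part was not tested.

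In endothelial-like cells (404 in Trp53-deleted ADT, 116 in Trp53-deleted, 160 in Trp53-intact ADT and 148 in Trp53-intact) the class I list had 2 of 23 measured genes higher and 11 lower in Trp53-deleted ADT against Trp53-deleted, where 14.2% of all measured genes were higher and 23.3% lower. It had 0 of 23 measured genes higher and 1 lower in Trp53-intact ADT against Trp53-intact, where 9.98% of all measured genes were higher and 6.99% lower. Between Trp53-deleted ADT and Trp53-intact ADT it had 3 of 23 measured genes higher and 2 lower, where 17.1% of all measured genes were higher and 12.6% lower, and between Trp53-deleted and Trp53-intact 10 of 23 measured genes higher and 0 lower, where 24.6% of all measured genes were higher and 7.01% lower. Tapbp had 132 CPM in Trp53-deleted ADT, 374 in Trp53-deleted, 211 in Trp53-intact ADT and 181 in Trp53-intact. H2-T23 had 209 CPM in Trp53-deleted ADT, 548 in Trp53-deleted, 272 in Trp53-intact ADT and 289 in Trp53-intact, and both genes were highest in Trp53-deleted. Of class II genes, 8 of 10 measured genes higher and 0 lower were found between Trp53-deleted ADT and Trp53-intact ADT. Cd74 had 513 CPM in Trp53-deleted ADT, 305 in Trp53-deleted, 98.8 in Trp53-intact ADT and 80.8 in Trp53-intact, below the neutrophil-like level in every library. The carry-over list summed to 721 CPM in Trp53-deleted ADT, 300.1 in Trp53-deleted, 243 in Trp53-intact ADT and 211 in Trp53-intact, and its part was not tested.

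In macrophage-like cells (2140 in Trp53-deleted ADT, 446 in Trp53-deleted, 308 in Trp53-intact ADT and 1359 in Trp53-intact) H2-Eb1, Cd74 and Ciita were lowest in Trp53-intact ADT, where Ctss, given above, was highest. H2-Eb1 had 5656 CPM in Trp53-deleted ADT, 5119 in Trp53-deleted, 3873 in Trp53-intact ADT and 6814 in Trp53-intact. Cd74 had 11958 CPM in Trp53-deleted ADT, 12669.6 in Trp53-deleted, 8274 in Trp53-intact ADT and 12114 in Trp53-intact. Ciita had 48.6 CPM in Trp53-deleted ADT, 81.1 in Trp53-deleted, 40.5 in Trp53-intact ADT and 68.5 in Trp53-intact, lower in each ADT library than in the library without ADT of the same genotype. The class II list had 0 of 11 measured genes higher and 1 lower in Trp53-deleted ADT against Trp53-deleted, where 6.05% of all measured genes were higher and 16.4% lower, and 0 of 11 measured genes higher and 4 lower in Trp53-intact ADT against Trp53-intact, where 5.03% of all measured genes were higher and 4.68% lower, with a median of -0.55 (-0.57 to -0.53). Between Trp53-deleted ADT and Trp53-intact ADT it had 2 of 11 measured genes higher and 0 lower, where 3.32% of all measured genes were higher and 6% lower, and a median of 0.35 (0.33 to 0.38). Between Trp53-deleted and Trp53-intact it had 0 of 11 measured genes higher and 0 lower, where 10.8% of all measured genes were higher and 3.27% lower, and a median of -0.09 (-0.17 to -0.01).

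Different clusters made up the macrophage-like class: 2063 of the 2140 cells of Trp53-deleted ADT lay in 1 cluster led by Ms4a4c, and 379 of the 446 of Trp53-deleted in another led by Ccl8. In Trp53-intact ADT the Ms4a4c cluster held 124 cells, the Ccl8 cluster 68 and a further cluster led by Mmp12 116. In Trp53-intact they held 56, 647 and 656. With a clustering resolution of 2 the median between Trp53-deleted ADT and Trp53-intact ADT was -0.20, so its sign depends on the clustering. That in Trp53-intact ADT against Trp53-intact was below 0 under all 12 alternatives that gave a value. None of the alternatives holds the mix of macrophage-like clusters fixed, and the part of that mix was not tested.

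Dendritic-like cells had the highest class II levels and few differences. H2-Ab1 had 10882 CPM in Trp53-deleted ADT, 8819 in Trp53-deleted, 9927 in Trp53-intact ADT and 10113 in Trp53-intact. Cd74 had 21338 CPM in Trp53-deleted ADT, 19802 in Trp53-deleted, 17857 in Trp53-intact ADT and 17338 in Trp53-intact. The class II list had 3 of 11 measured genes higher and 0 lower in Trp53-deleted ADT against Trp53-deleted, where 5.98% of all measured genes were higher and 18.1% lower. The higher genes were the exchange inhibitors H2-Oa and H2-Ob and the second beta chain H2-DMb2. The immune carry-over list had 0 of 14 measured genes higher and 10 lower in the same comparison (median -1.34), and summed in dendritic-like cells to 7025 CPM in Trp53-deleted ADT, 18878 in Trp53-deleted, 5094 in Trp53-intact ADT and 7613 in Trp53-intact, highest in Trp53-deleted. Dendritic-like cells are immune cells and can make some of these genes themselves, so the list is no measure of carry-over in them. The part of these genes was not tested. The class II list had 0 of 11 measured genes higher and 0 lower in Trp53-intact ADT against Trp53-intact, where 5.61% of all measured genes were higher and 4.13% lower, and 1 of 11 measured genes higher and 0 lower between Trp53-deleted ADT and Trp53-intact ADT, where 6.74% of all measured genes were higher and 5.71% lower. Between Trp53-deleted and Trp53-intact it had 1 of 11 measured genes higher and 2 lower, where 23.3% of all measured genes were higher and 4.44% lower. H2-Oa had 125 CPM in Trp53-deleted ADT, 62.9 in Trp53-deleted, 144 in Trp53-intact ADT and 123 in Trp53-intact, and H2-Ob had 82.4 CPM in Trp53-deleted ADT, 42.8 in Trp53-deleted, 95.8 in Trp53-intact ADT and 87.3 in Trp53-intact. Trp53-deleted was the lowest library for both.

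Between Trp53-deleted and Trp53-intact, more class I genes were higher than lower in immune cells too. All measured genes leaned the same way in dendritic-like, macrophage-like, T-like and neutrophil-like cells, so the lean is not particular to class I. Dendritic-like cells had 11 of 23 measured genes higher and 0 lower. The immune carry-over list, which is no measure of carry-over in these cells, had 10 of 14 measured genes higher and 0 lower there (median 1.19). Its part in the class I counts was not tested. Of class I genes, macrophage-like cells had 8 of 23 measured genes higher and 0 lower, T-like cells 9 of 23 measured genes higher and 0 lower and neutrophil-like cells 7 of 23 measured genes higher and 0 lower. Of all measured genes, 21.5% were higher and 8.02% lower in T-like cells and 20.9% and 5.57% in neutrophil-like cells in that comparison, while the shares for the other classes are given above. Tap1 in macrophage-like cells had 108 CPM in Trp53-deleted ADT, 132 in Trp53-deleted, 75.0 in Trp53-intact ADT and 65.1 in Trp53-intact. In T-like cells Tap1 had 137 CPM in Trp53-deleted ADT, 166 in Trp53-deleted, 90.5 in Trp53-intact ADT and 84.2 in Trp53-intact. In neutrophil-like cells Tap1 had 94.2 CPM in Trp53-deleted ADT, 162 in Trp53-deleted, 68.6 in Trp53-intact ADT and 61.6 in Trp53-intact, highest in Trp53-deleted as in the other 2 classes.

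In Trp53-deleted ADT against Trp53-deleted the same library stood on the other side. T-like cells had 2 of 23 measured genes higher and 1 lower, where 8.57% of all measured genes were higher and 17.5% lower, macrophage-like cells 1 of 23 measured genes higher and 6 lower, and neutrophil-like cells 1 of 23 measured genes higher and 6 lower, where 15% of all measured genes were higher and 14.1% lower. The log2 ratio of Tapbp was -0.60 in epithelial-like, -1.95 in basal-like, -0.60 in fibroblast-like, -1.47 in endothelial-like, -0.64 in macrophage-like, -0.44 in dendritic-like, -0.35 in T-like and -0.81 in neutrophil-like cells. That of Nlrc5 was -0.35 in epithelial-like, -0.29 in fibroblast-like, -1.15 in endothelial-like, -0.84 in macrophage-like, -0.71 in dendritic-like, -0.69 in T-like and -0.96 in neutrophil-like cells. In basal-like cells Nlrc5 had 0 UMIs in Trp53-deleted ADT and 24 in Trp53-deleted. Tapbp was chosen here after its values were seen, and these comparisons share the Trp53-deleted library with those across genotype.

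Trp53-intact ADT differed less from Trp53-intact in class I genes of T-like and neutrophil-like cells. T-like cells had 0 of 23 measured genes higher and 0 lower, where 6.17% of all measured genes were higher and 10.2% lower, and neutrophil-like cells had 2 of 23 measured genes higher and 0 lower, where 15.4% of all measured genes were higher and 6.08% lower. Between Trp53-deleted ADT and Trp53-intact ADT, T-like cells had 8 of 23 measured genes higher and 0 lower, where 10.6% of all measured genes were higher and 4.38% lower, and neutrophil-like cells 2 of 23 measured genes higher and 0 lower, where 15.4% of all measured genes were higher and 9.93% lower. H2-Q7 in T-like cells had 1288 CPM in Trp53-deleted ADT, 1145 in Trp53-deleted, 692 in Trp53-intact ADT and 873 in Trp53-intact, higher in both Trp53-deleted libraries than in both Trp53-intact ones. The T-like class pools clusters whose mix differed between libraries. The cluster led by Cd8b1 and Cd8a held 507 in Trp53-deleted ADT, 300 in Trp53-deleted, 498 in Trp53-intact ADT and 75 in Trp53-intact. That led by Il17a and Trdc held 213 in Trp53-deleted ADT, 33 in Trp53-deleted, 187 in Trp53-intact ADT and 200 in Trp53-intact. The part of this mix in the T-like values was not tested.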

How the data were processed

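The authors deposited 1 matrix of UMI counts for each gene and cell barcode, made with Cell Ranger 2.1.1 on mm10 per the submitters' processing notes, while the file header names software version 3.1.0. Per the labels' protocols, prostate cells were freed with collagenase and TrypLE and captured with 10x Chromium 3' v3 kits, and no sort is stated. Libraries were split by barcode suffix. The rest of the genotype, shared by all groups, is not reported here.

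Cells with at least 500 UMIs, 200 genes and at most 20% mitochondrial UMIs were kept. Scrublet's own threshold marked at most 1 cell a library, so the top-scoring 0.008 share for each 1000 barcodes was removed instead, 356 to 816 barcodes a library. With scanpy 1.11.5, counts were scaled to 10000 a cell, 2000 variable genes without the members gave 40 principal components, 20 neighbours and, at a Leiden resolution of 1, 35 clusters. Clusters were named from marker lists; types outside the lists were added to the naming after the clusters had been seen. UMIs were summed by class and library, since cells are not replicates, and turned into CPM. Levels need 20 cells, comparisons 20 cells in each library and alternatives 50. Log2 ratios have a pseudocount of 5 CPM, and intervals are exact Poisson, conditional binomial or Clopper-Pearson 95% intervals (scipy 1.17.1), which cover counting error only. The ratio scripts were tested on simulated data. Sequences come from RefSeq promoters and positions from GENCODE on GRCm38.

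The members and lists were chosen with earlier results of these data known. Named were H2-K1, H2-D1, B2m, Tap1, Psmb8, Psmb9, Nlrc5, Cd74, H2-Aa, H2-Ab1, H2-Eb1, H2-DMa, Ciita and Ctss and, among genes at least 1.5-fold apart, up to 4 of a list in each direction in epithelial-like cells and up to 3 elsewhere. Tapbp across classes, and genes named only for their level in a class, were chosen after their values were seen. Other lists covered interferon response, interferon gamma signalling and MHC regulation, the constitutive proteasome, other class Ib genes, endosomal proteases, costimulation and immune carry-over. Alternatives changed the pseudocount, gene and cell filters, size factors, doublets, clustering, background and the cells counted.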

Additional observations from a re-analysis of the deposited data

Results flagged for a closer look

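Of 195 pairs of a gene and a cell class with a ratio in both genotypes, 8 had log2 ratios of at least 1.5-fold with ADT in opposite directions in the genotypes, a difference that was not tested, since each group has 1 library. The same count over all measured genes was not made, so whether 8 of 195 is many cannot be said. Pairs share libraries and cells, so they are not independent. In epithelial-like cells, with ADT over without, H2-Aa was at 1.98 in Trp53-deleted mice and -1.02 in Trp53-intact mice, H2-Ab1 at 2.14 in Trp53-deleted mice and -1.06 in Trp53-intact mice and H2-Eb1 at 2.27 in Trp53-deleted mice and -1.65 in Trp53-intact mice. In luminal progenitor-like cells alone these 3 genes did not reach 1.5-fold in Trp53-intact mice. In fibroblast-like cells Cd74 was at 1.001 in Trp53-deleted mice and -0.68 in Trp53-intact mice, Ctss at 1.73 in Trp53-deleted mice and -0.81 in Trp53-intact mice and H2-Eb1 at 1.22 in Trp53-deleted mice and -0.79 in Trp53-intact mice. In T-like cells H2-Ob was at -1.05 in Trp53-deleted mice and 0.84 in Trp53-intact mice. In dendritic-like cells Nlrc5 was at -0.71 in Trp53-deleted mice and 0.81 in Trp53-intact mice.

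Of the unnamed clusters, which enter no comparison, 3 held Cd74 above the neutrophil-like level of the same library, beyond both counting intervals and in libraries with at least 50 of their cells. The shallow cluster led by Dapl1, Ccl20 and Car2 (median 888 UMIs) had 1114 CPM in Trp53-deleted ADT, 2997 in Trp53-intact ADT and 6871 in Trp53-intact. The cluster led by the cell cycle genes Top2a and Mki67 had 6297 CPM in Trp53-deleted ADT, 5699 in Trp53-intact ADT and 8649 in Trp53-intact. The cluster led by Crabp1 and Ctsk had 1935 CPM in Trp53-deleted ADT, the library of 1698 of its 1709 cells. The unnamed cluster led by mesenchymal genes, with 64.2 CPM in Trp53-deleted ADT, and that led by intestinal genes, with 159.8 CPM in Trp53-deleted ADT and 170.2 in Trp53-intact, lay below the neutrophil-like level.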

How the results depend on the processing

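No paired analysis was possible because each group has 1 library. No test was made, so the alternatives below are set against counting intervals only. Of 210 alternative values of the 16 list medians, 154 stayed within the counting interval of the main value and 56 left it. Of those of single genes 924 stayed, 523 left it and 15 had the opposite sign of a 1.5-fold difference. The 4 alternatives marked as added were chosen after seeing the data. The cause of a change was not tested. Values are log2 ratios. With a mitochondrial limit of 10%, the class I median of epithelial-like cells was -0.28 (Trp53-deleted ADT over Trp53-deleted), the class II median of epithelial-like cells was 1.24 (Trp53-deleted ADT over Trp53-deleted), 0.060 (Trp53-intact ADT over Trp53-intact) and -0.25 (Trp53-deleted over Trp53-intact) and the class II median of macrophage-like cells was 0.26 (Trp53-deleted over Trp53-intact). With each cell weighted alike in place of summed UMIs (added), the class I median of epithelial-like cells was 0.018 (Trp53-deleted ADT over Trp53-deleted) and 0.13 (Trp53-deleted ADT over Trp53-intact ADT), the class II median of epithelial-like cells was 0.69 (Trp53-deleted ADT over Trp53-deleted), -2.10 (Trp53-intact ADT over Trp53-intact) and -1.66 (Trp53-deleted over Trp53-intact), H2-DMa in epithelial-like cells was -0.16 (Trp53-deleted ADT over Trp53-deleted) and the class II median of macrophage-like cells was -0.39 (Trp53-intact ADT over Trp53-intact) and 0.27 (Trp53-deleted ADT over Trp53-intact ADT). With median-of-ratios size factors, the class I median of epithelial-like cells was 0.27 (Trp53-intact ADT over Trp53-intact) and 0.33 (Trp53-deleted over Trp53-intact), the class I median of fibroblast-like cells was 0.046 (Trp53-deleted ADT over Trp53-deleted) and the class II median of macrophage-like cells was -0.66 (Trp53-intact ADT over Trp53-intact), 0.42 (Trp53-deleted ADT over Trp53-intact ADT) and -0.39 (Trp53-deleted over Trp53-intact). With a pseudocount of 1 CPM, the class II median of epithelial-like cells was 1.77 (Trp53-deleted ADT over Trp53-deleted) and -0.99 (Trp53-deleted over Trp53-intact). With at least 100 UMIs a gene, the class II median of epithelial-like cells was 1.98 (Trp53-deleted ADT over Trp53-deleted), -0.88 (Trp53-intact ADT over Trp53-intact), 1.22 (Trp53-deleted ADT over Trp53-intact ADT) and -1.13 (Trp53-deleted over Trp53-intact). With at least 1 UMI a gene, the class II median of epithelial-like cells was 0.96 (Trp53-deleted ADT over Trp53-deleted). With the neutrophil-like CPM taken off, the class II median of epithelial-like cells was 0 (Trp53-deleted ADT over Trp53-deleted), 0 (Trp53-intact ADT over Trp53-intact), 0 (Trp53-deleted ADT over Trp53-intact ADT) and 0 (Trp53-deleted over Trp53-intact), Cd74 in epithelial-like cells was -0.70 (Trp53-deleted ADT over Trp53-intact ADT), H2-DMa in epithelial-like cells was -0.18 (Trp53-deleted ADT over Trp53-intact ADT) and the class II median of macrophage-like cells was 0.31 (Trp53-deleted ADT over Trp53-intact ADT). The epithelial-like values of 0 follow from the subtraction, which sets H2-Aa, H2-Ab1, H2-Eb1 and Ctss to 0 in all 4 libraries, and say nothing of the ratios. With at least 1000 UMIs a cell, the class II median of epithelial-like cells was 0.10 (Trp53-intact ADT over Trp53-intact) and -0.22 (Trp53-deleted over Trp53-intact) and the class II median of macrophage-like cells was -0.37 (Trp53-intact ADT over Trp53-intact), 0.030 (Trp53-deleted ADT over Trp53-intact ADT) and 0.18 (Trp53-deleted over Trp53-intact). In luminal progenitor-like cells alone, the class II median of epithelial-like cells was 0.22 (Trp53-intact ADT over Trp53-intact) and -0.21 (Trp53-deleted over Trp53-intact), H2-Aa in epithelial-like cells was 0.24 (Trp53-intact ADT over Trp53-intact), H2-Ab1 in epithelial-like cells was 0.21 (Trp53-intact ADT over Trp53-intact) and Cd74 in epithelial-like cells was 0.37 (Trp53-deleted over Trp53-intact). Without the luminal-like cluster (added), the class II median of epithelial-like cells was 0.19 (Trp53-intact ADT over Trp53-intact) and -0.079 (Trp53-deleted over Trp53-intact), H2-Aa in epithelial-like cells was 0.18 (Trp53-intact ADT over Trp53-intact), H2-Ab1 in epithelial-like cells was 0.19 (Trp53-intact ADT over Trp53-intact) and Cd74 in epithelial-like cells was 0.41 (Trp53-deleted over Trp53-intact). With the unnamed cluster of epithelial genes counted (added), the class II median of epithelial-like cells was 0.31 (Trp53-intact ADT over Trp53-intact) and 0.020 (Trp53-deleted ADT over Trp53-intact ADT), H2-Aa in epithelial-like cells was 0.35 (Trp53-intact ADT over Trp53-intact), H2-Ab1 in epithelial-like cells was 0.17 (Trp53-intact ADT over Trp53-intact), H2-Eb1 in epithelial-like cells was 0.11 (Trp53-intact ADT over Trp53-intact) and -0.12 (Trp53-deleted ADT over Trp53-intact ADT) and Ctss in epithelial-like cells was 0.36 (Trp53-intact ADT over Trp53-intact). With doublets kept, the class II median of epithelial-like cells was -1.14 (Trp53-deleted over Trp53-intact) and the class II median of macrophage-like cells was -0.30 (Trp53-intact ADT over Trp53-intact), 0.29 (Trp53-deleted ADT over Trp53-intact ADT) and -0.0012 (Trp53-deleted over Trp53-intact). With libraries clustered singly, the class II median of epithelial-like cells was -0.60 (Trp53-deleted over Trp53-intact) and the class II median of macrophage-like cells was -1.04 (Trp53-deleted ADT over Trp53-deleted), -0.85 (Trp53-intact ADT over Trp53-intact), -0.0084 (Trp53-deleted ADT over Trp53-intact ADT) and 0.098 (Trp53-deleted over Trp53-intact). With the mesenchymal cluster counted (added), the class I median of fibroblast-like cells was -0.37 (Trp53-deleted ADT over Trp53-deleted) and -0.22 (Trp53-deleted ADT over Trp53-intact ADT) and H2-D1 in fibroblast-like cells was -0.64 (Trp53-deleted ADT over Trp53-intact ADT). At a resolution of 2, the class II median of macrophage-like cells was -0.45 (Trp53-deleted ADT over Trp53-deleted), -0.50 (Trp53-intact ADT over Trp53-intact) and -0.20 (Trp53-deleted ADT over Trp53-intact ADT). With the 34 genes used for clustering, the class II median of macrophage-like cells was 0.24 (Trp53-deleted ADT over Trp53-intact ADT). With a mitochondrial limit of 10%, the macrophage-like medians of Trp53-deleted ADT had no value, since too few of its cells were left. Epithelial-like Ciita and Nlrc5 rest on few UMIs.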

Other observations

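In B-like cells Ciita had 104 CPM in Trp53-deleted ADT, 201 in Trp53-deleted, 205 in Trp53-intact ADT and 113 in Trp53-intact, lowest in Trp53-deleted ADT. H2-Ob there had 316 CPM in Trp53-deleted ADT, 371 in Trp53-deleted, 486 in Trp53-intact ADT and 305 in Trp53-intact, and H2-DMb1 had 146 CPM in Trp53-deleted ADT, 141 in Trp53-deleted, 174 in Trp53-intact ADT and 98.3 in Trp53-intact. Trp53-intact was the lowest library for H2-DMb1. In NK-like cells, which should carry few class II molecules, H2-Ab1 had 121 CPM in Trp53-deleted ADT, 99.2 in Trp53-deleted, 24.1 in Trp53-intact ADT and 118 in Trp53-intact, lowest in Trp53-intact ADT, the library with the lowest neutrophil-like level too.

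Of all measured genes of epithelial-like cells, 5.44% were higher and 7.44% lower in Trp53-deleted ADT against Trp53-deleted, 5.42% and 5.29% in Trp53-intact ADT against Trp53-intact, 3.4% and 3.65% in Trp53-deleted ADT against Trp53-intact ADT and 3.44% and 3.45% in Trp53-deleted against Trp53-intact. The lists below hold few genes and are read against these shares. Of the measured genes of endosomal proteases and class II turnover in epithelial-like cells, 0 of 8 were higher and 1 lower in Trp53-deleted ADT against Trp53-deleted, 0 of 9 were higher and 2 lower in Trp53-intact ADT against Trp53-intact, 0 of 8 were higher and 0 lower in Trp53-deleted ADT against Trp53-intact ADT and 0 of 9 were higher and 1 lower in Trp53-deleted against Trp53-intact. Of costimulatory genes, 0 of 3 were higher and 0 lower in Trp53-deleted ADT against Trp53-deleted, 0 of 4 were higher and 1 lower in Trp53-intact ADT against Trp53-intact, 0 of 4 were higher and 0 lower in Trp53-deleted ADT against Trp53-intact ADT and 0 of 4 were higher and 1 lower in Trp53-deleted against Trp53-intact. Of other class Ib and related genes, 0 of 6 were higher and 1 lower in Trp53-deleted ADT against Trp53-deleted, 0 of 7 were higher and 0 lower in Trp53-intact ADT against Trp53-intact, 0 of 7 were higher and 0 lower in Trp53-deleted ADT against Trp53-intact ADT and 0 of 7 were higher and 0 lower in Trp53-deleted against Trp53-intact. Of genes of interferon gamma signalling and MHC regulation, 1 of 16 were higher and 0 lower in Trp53-deleted ADT against Trp53-deleted, 2 of 16 were higher and 1 lower in Trp53-intact ADT against Trp53-intact, 0 of 16 were higher and 2 lower in Trp53-deleted ADT against Trp53-intact ADT and 0 of 16 were higher and 0 lower in Trp53-deleted against Trp53-intact.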
